A study of Mus musculus with 12 samples.

Results

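The genes of serpins and of plasminogen activation described here are 8 gene symbols of 23238 in the files: Serpina3n, Serpine2, Serping1, Serpinf1, Serpinh1, Plau, Plaur and Plat. They were chosen by symbol, 5 serpins and 3 genes of the urokinase and tissue-type activator system, with measured levels of these libraries already known. Their levels are therefore given as a description of the 4 groups, with fold changes and standard errors (SE) but no p-value or call. RNA came from alveolar type II (ATII) cells, the surfactant-producing cells of the lung epithelium, which were sorted as CD74+ EpCAM+ cells from single mice, with 3 libraries in each group. Con mice were treated with PBS and BLM mice with bleomycin at 4 mg/kg into the trachea, and both are described in the study as Spc-p300 f/f, with LoxP sites around an exon of p300 (Ep300). KO and KOBLM mice had the same 2 treatments on the Spc-p300 d/d genotype, in which the exon is removed after tamoxifen. The labels give tamoxifen at 10 mg/kg in 8-week-old mice for all 12 samples. The titles of the Con samples read WT, and the study elsewhere describes floxed mice given vehicle or tamoxifen, so the genotype of Con and BLM mice and whether they had tamoxifen are uncertain. The deletion is driven by Spc-CreERT2, which limits it to cells in which the promoter of surfactant protein C is active.

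Serpins are protease inhibitors that trap their target enzyme in an inactive complex, and a few members of the family have no inhibitory activity. Plau (urokinase) and Plat (tissue-type activator) are the proteases that convert plasminogen to plasmin, the enzyme that dissolves fibrin, and Plaur is the receptor that holds urokinase at the cell surface. In injured lung, fibrin in the airspaces and the balance between activators and their serpin inhibitors are long-standing subjects of work on fibrosis.

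Levels are given as CPM, the reads of a gene scaled to the total counted in the library, which ranged from 7005005 to 11153154 reads, so that 3 reads, taken as the floor of detection, are 0.269 to 0.428 CPM. The kit reads the 3′ end of each transcript, and levels are compared within a gene and not between genes. The third BLM library stood apart from the rest. It had 6847 genes with a count, against a range up to 13838, and correlated with the other BLM libraries at a Spearman rho of 0.529 and 0.535 across genes, while the remaining pairs inside groups ranged from 0.746 to 0.898. Its summed level of 14 pluripotency genes was 2819 CPM, against 0.648 to 24.0 CPM in the other libraries. Values are given with and without it. KO 3 and KOBLM 2 were also poor in genes, with 8790 and 9018. For Ep300 itself, 1056, 1341 and 541 reads were counted among the Con libraries, against 1434, 1118 and 1113 for KO. Tags at the 3′ end lie outside the deleted exon, so this count does not check the deletion. Of the sort and cell type markers, Cd74 lay between 460 and 2247 CPM, and Sftpc between 0.554 CPM (KOBLM 3) and 612 CPM. Epcam lay between 2.75 and 329 CPM, the highest value being that of BLM 3. Without that library its highest level was 201 CPM (Con 1). The summed level of 12 ATII markers was 186 to 2252 CPM. That of 16 macrophage markers was 1027 to 39664 CPM, and it was above the ATII sum in every library. The part of macrophages in the levels of the members was not tested. In bulk RNA, fewer cells of a type and less RNA per cell cannot be told apart.

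Serpina3n, a secreted acute-phase inhibitor of the antichymotrypsin group on chromosome 12 (104406729 to 104414329, plus strand, GRCm38), had the largest fitted fold change between BLM and Con among the members that could be fitted. It was at 2.27, 3.64 and 5.18 CPM in Con and at 212, 165 and 15.1 CPM in BLM. The KO libraries held 0, 40.1 and 52.6 CPM, and the KOBLM libraries 16.3, 4.62 and 0.111 CPM, the last from 1 read. Each BLM library was above each Con library, while BLM 3 alone lay below KOBLM 1, and KO split into 1 library without a read and 2 above the Con range. Mean levels were 3.70 ± 1.46 CPM in Con, 131 ± 103 in BLM, 30.9 ± 27.5 in KO and 7.02 ± 8.37 in KOBLM (SD, n = 3). BLM was 35.3-fold above Con, a fitted log2 fold change of 5.26 (SE 1.97), or 5.80 (SE 1.77) without BLM 3. KOBLM was 18.6-fold below BLM (log2 -4.24, SE 1.88), and -4.79 (SE 1.69) without BLM 3, when the groups no longer overlapped. KO was 8.36-fold above Con (log2 3.15, SE 1.79) and KOBLM 4.40-fold below KO (log2 -2.14, SE 1.71), with overlapping libraries in both. Bleomycin thus went with a higher mean in the control genotype and a lower mean in the knockout, and the difference between those effects was -7.40 on the log2 scale (SE 2.59). Without KOBLM 1 the log2 fold change was -5.82 against BLM and -3.76 against KO, and the difference between the effects -8.99.

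The RefSeq promoter window of Serpina3n, 250 bases before to 50 after the transcript start, is shown because this gene had the largest fitted fold change between BLM and Con among the 7 members with a fitted value. It lies at chr12:104406458-104406757 on the plus strand of GRCm38.p6, has a GC content of 48.7%, and is written in lower case with matches to the searched motifs in capitals.
Serpina3n: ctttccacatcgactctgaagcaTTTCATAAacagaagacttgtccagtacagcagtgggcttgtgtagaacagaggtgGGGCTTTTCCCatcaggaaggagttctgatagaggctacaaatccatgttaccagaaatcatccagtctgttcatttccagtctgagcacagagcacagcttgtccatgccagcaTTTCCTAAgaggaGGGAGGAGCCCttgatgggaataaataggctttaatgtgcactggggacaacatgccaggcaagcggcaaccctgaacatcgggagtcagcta
The motifs, searched on both strands, were the letters TGANTCA for AP-1, GGGNNNNNCC for NF-kB, TTNNGNAA for C/EBP, TTCNNNGAA for STAT, GGGCGG for the GC box and TATAAA for the TATA box. The window held 2 C/EBP matches, starting at -227 and -56, and 4 NF-kB matches in overlapping pairs, starting at -171, -170, -43 and -42. Of 32851 mouse promoter windows of this length, 40.7% held a C/EBP match and 50.8% an NF-kB match, so both sets of letters are common, and they are a description of the window only.

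Serpine2 encodes protease nexin-1, an inhibitor of thrombin, urokinase and plasmin, and lies on chromosome 1 (79794197 to 79861180, minus strand). Its levels were 3.88, 16.9 and 21.4 CPM in Con, 70.8, 45.0 and 181 CPM in BLM, 1.93, 3.98 and 9.81 CPM in KO, and 3.21, 0 and 1.995 CPM in KOBLM. All 3 BLM libraries lay above all 9 others, and the highest KOBLM library was below the lowest Con library. The means were 14.1 ± 9.10 CPM in Con, 98.9 ± 72.2 in BLM, 5.24 ± 4.09 in KO and 1.74 ± 1.62 in KOBLM (SD, n = 3), and BLM stood at 57.9 ± 18.3 CPM without BLM 3 (n = 2). BLM was 7.04-fold above Con (log2 2.72, SE 1.46; 2.17, SE 1.61, without BLM 3). KOBLM was 57.0-fold below BLM (log2 -5.59, SE 1.67; -5.04, SE 1.78, without BLM 3), and the value without KOBLM 1 was -6.30 and without KOBLM 2 -5.00. In the knockout the direction after bleomycin was downward, with KOBLM 3.02-fold below KO and overlapping libraries (log2 -1.50, SE 1.41), and the difference between the effects was -4.21 (SE 2.03). By group means, Serpine2, Serpina3n and Plau were the 3 members with a higher level after bleomycin in the controls and a lower one in the knockout.

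The promoter window of Serpine2, shown to set it beside that of Serpina3n, lies at chr1:79858616-79858915 on the minus strand, and its GC content was 77.7%. The whole window lies inside the span of the gene given above, which on this strand begins at 79861180. It is therefore the window of a transcript start inside that span, and no window at the outer end is shown. Capitals again mark matches to the 6 motifs.
Serpine2: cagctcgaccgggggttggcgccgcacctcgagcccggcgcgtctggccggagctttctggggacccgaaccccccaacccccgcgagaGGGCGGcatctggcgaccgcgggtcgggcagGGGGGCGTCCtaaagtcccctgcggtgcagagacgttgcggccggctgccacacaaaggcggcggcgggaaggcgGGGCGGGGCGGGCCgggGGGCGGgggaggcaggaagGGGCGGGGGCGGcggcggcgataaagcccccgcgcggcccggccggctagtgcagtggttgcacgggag
It held 6 GC boxes, the first at -161 and the other 5 between -55 and -13, and 2 NF-kB matches at -130 and -51, the second overlapping GC boxes. GC boxes were present in 35.7% of the promoter windows. No C/EBP letters were found in this window, in contrast to that of Serpina3n.

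Serping1, the C1 inhibitor that restrains complement and plasma kallikrein, lies on chromosome 2 (84765387 to 84775444, minus strand). It was at 31.3, 67.6 and 40.6 CPM in Con, 136, 118 and 0 CPM in BLM, 17.3, 14.1 and 0 CPM in KO, and 67.2, 28.3 and 14.4 CPM in KOBLM. BLM 1 and BLM 2 were above the other 10 libraries, and BLM 3 had no read of the gene. All KO libraries were below all Con libraries, with means of 10.49 ± 9.23 and 46.5 ± 18.8 CPM (SD, n = 3), and KO was 4.43-fold lower (log2 -1.96, SE 1.83). The mean of BLM, 84.6 ± 73.8 CPM, was 1.82-fold that of Con (log2 0.99, SE 1.78). Without BLM 3 it was 127 ± 12.99 CPM (n = 2), the log2 fold change was 1.57 (SE 1.26), and the groups did not overlap. KOBLM, at 36.6 ± 27.3 CPM, was below BLM (log2 -1.24, SE 1.79; -1.83, SE 1.26, without BLM 3) and above KO (log2 1.70, SE 1.81), with overlap in both when all libraries are used. Without KOBLM 1 these values were -2.00 and 0.91.

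Serpinh1 encodes HSP47, the collagen chaperone of the endoplasmic reticulum, a serpin without protease inhibitor activity, on chromosome 7 (99345376 to 99353239, minus strand). It was at 5.62, 12.9 and 27.3 CPM in Con, 25.3, 31.5 and 139 CPM in BLM, 5.17, 3.43 and 0 CPM in KO, and 66.5, 0 and 22.4 CPM in KOBLM. The highest KO library lay below the lowest Con library, and KOBLM 1 was above each library of the other groups except BLM 3. KO, with a mean of 2.87 ± 2.63 CPM, was 5.33-fold below Con, with 15.3 ± 11.05 CPM (log2 -2.21, SE 1.90). BLM was 4.26-fold above Con (log2 1.97, SE 1.88), but BLM 3 held most of the mean of 65.2 ± 63.9 CPM, and without it the mean was 28.4 ± 4.43 CPM (n = 2) and the log2 fold change 1.05 (SE 1.97). KOBLM was 10.3-fold above KO (log2 3.30, SE 1.99), with overlapping libraries and a log2 fold change of 1.94 without KOBLM 1. Against BLM it had a log2 fold change of -0.88 (SE 1.83), which became 0.04 (SE 1.997) without BLM 3 and -2.18 without KOBLM 1.

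Serpinf1 encodes PEDF, a secreted serpin without inhibitory activity that restrains blood vessel growth, on chromosome 11 (75409769 to 75422701, minus strand). It had no read in any Con or KO library and 0, 0 and 1 read in KOBLM. In BLM it had 21, 8 and 1326 reads, or 2.998, 1.06 and 119 CPM, so that BLM 3 alone held most of the reads. The mean of BLM, 41.0 ± 67.5 CPM, was at least 122-fold that of Con when 3 reads per library are taken as the floor in Con. Without BLM 3 it was 2.03 ± 1.37 CPM (n = 2), at least 6.05-fold that of Con. Serpinf1 was the member that did not pass the filter on low counts, and it has no fitted value.

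Plau, on chromosome 14 (20836660 to 20843385, plus strand), was low throughout, at 0, 7.38 and 0 CPM in Con, 1.86, 8.05 and 0 CPM in BLM, 2.03, 23.2 and 17.5 CPM in KO, and 15.1, 2.50 and 7.21 CPM in KOBLM. The 6 knockout libraries all had reads, whereas 3 of the 6 control libraries had none, and the ranges of all 4 groups overlapped. The means were 2.46 ± 4.26 CPM in Con, 3.30 ± 4.21 in BLM, 14.2 ± 10.96 in KO and 8.28 ± 6.38 in KOBLM (SD, n = 3). KO was 5.79-fold above Con (log2 2.61, SE 2.70), which rested on Con 2 as the only Con library with a read. KOBLM was 2.51-fold above BLM (log2 1.27, SE 2.58) and 1.72-fold below KO (log2 -0.80, SE 2.56).

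Plat, on chromosome 8 (22757727 to 22782844, plus strand), was at 6.15, 7.49 and 0 CPM in Con, 45.4, 10.3 and 0 CPM in BLM, 3.35, 0 and 0 CPM in KO, and 29.0, 0 and 9.76 CPM in KOBLM. Reads were present in 7 of the 12 libraries. The groups overlapped in all comparisons with every library included, and without BLM 3 both BLM libraries were above Con. BLM was 4.08-fold above Con (log2 2.10, SE 2.91) and KOBLM 11.6-fold above KO (log2 3.53, SE 3.09). Without BLM 1 the first log2 fold change was 0.35. The second rested on KO 1, the only KO library with reads, and was 2.17 without KOBLM 1.

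Plaur, on chromosome 7 (24462484 to 24475968, plus strand), encodes the urokinase receptor. It was at 207, 99.7 and 179.7 CPM in Con, 60.0, 135 and 0 CPM in BLM, 163, 129 and 119 CPM in KO, and 129, 86.5 and 94.0 CPM in KOBLM. BLM 3 was the only library without a read, and the ranges of all 4 groups overlapped. The means were 162 ± 55.9 CPM in Con, 65.2 ± 67.9 in BLM, 137 ± 23.3 in KO and 103 ± 22.5 in KOBLM (SD, n = 3). BLM was 2.49-fold below Con (log2 -1.14, SE 1.28), and without BLM 3 the mean of BLM was 97.7 ± 53.4 CPM (n = 2) and the log2 fold change -0.55 (SE 0.50). Without BLM 2 it was -2.35. KO and Con differed by -0.11 (SE 1.27) and KOBLM and KO by -0.43 (SE 1.27) on the log2 scale. Without BLM 3, KO 3 and KOBLM 2 these values were 0.07 (SE 0.44) and -0.46 (SE 0.48). The promoter window of Plaur is shown as that of the receptor, because it was the only one of the 5 members found in the RefSeq table with an AP-1 match. It lies at chr7:24462233-24462532 on the plus strand.
Plaur: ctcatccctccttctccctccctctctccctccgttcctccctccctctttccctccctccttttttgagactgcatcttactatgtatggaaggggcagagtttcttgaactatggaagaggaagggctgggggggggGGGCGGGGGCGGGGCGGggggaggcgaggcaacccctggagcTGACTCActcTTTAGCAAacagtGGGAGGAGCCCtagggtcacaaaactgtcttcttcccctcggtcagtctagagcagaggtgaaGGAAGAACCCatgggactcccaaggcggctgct
The AP-1 letters TGACTCA start at -69, and AP-1 letters were present in 7.81% of the promoter windows. The window also held 3 GC boxes between -111 and -100, 1 C/EBP match at -59 and 3 NF-kB matches. Promoters of Serpinf1 and Serpinh1 were in the table too, with 1 C/EBP match in the former and 1 NF-kB match and 1 GC box in the latter.

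**Figure D1:**
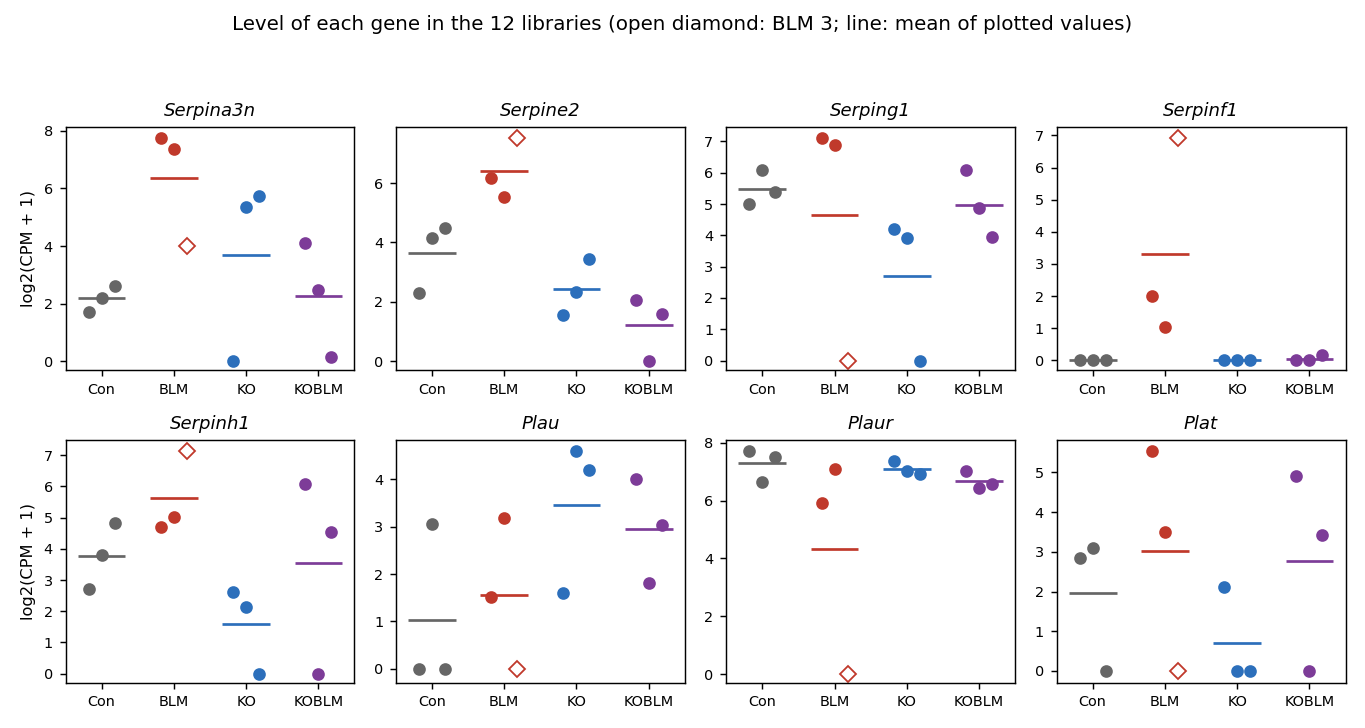
Level of each of the 8 genes in the 12 libraries, as log2(CPM + 1) on the vertical axis, by group on the horizontal axis; each point is 1 library, the line is the mean of the plotted values and the open diamond is BLM 3. All BLM libraries of Serpine2 sit above all other libraries, while BLM 3 is at 0 for Serping1, Plau, Plaur and Plat.

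By group mean of all libraries, BLM was the highest group for 6 of the 8 genes: Serpina3n, Serpine2, Serping1, Serpinf1, Serpinh1 and Plat. KO was the highest for Plau and Con for Plaur. Without BLM 3 the BLM mean of Serpinh1, 28.4 CPM (n = 2), was below that of KOBLM, 29.6 CPM. The members were chosen with these levels known, so nothing is read from the count. In the orders with all libraries, only a few neighbours were apart in every library. These were BLM above Con for Serpine2, BLM above KOBLM for Serpinf1 and Con above KO for Serpinh1. Members whose libraries did not overlap were Serpina3n and Serpine2 in BLM above Con (5.32% of all 13054 fitted genes), Serpine2 in KOBLM below BLM (4.98%) and Serping1 and Serpinh1 in KO below Con (7.56%). Without BLM 3 they were Serpina3n, Serpine2, Serping1 and Plat in BLM above Con (16.1%), and Serpina3n, Serpine2 and Serping1 in KOBLM below BLM (15.4%). Serpinf1 did not overlap either in BLM against the other groups. Since the members were chosen from these contrasts, nothing is read from these counts. The median log2 fold change of the 7 members was 1.97 in BLM against Con and -0.88 in KOBLM against BLM, beside -0.08 and 0.10 over all fitted genes. In KO against Con it was -1.38, beside -0.09. The choice of the members bears on these medians too, so nothing is read from them. The median of -0.88 was the value of Serpinh1, which was 0.04 without BLM 3.

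**Figure D2:**
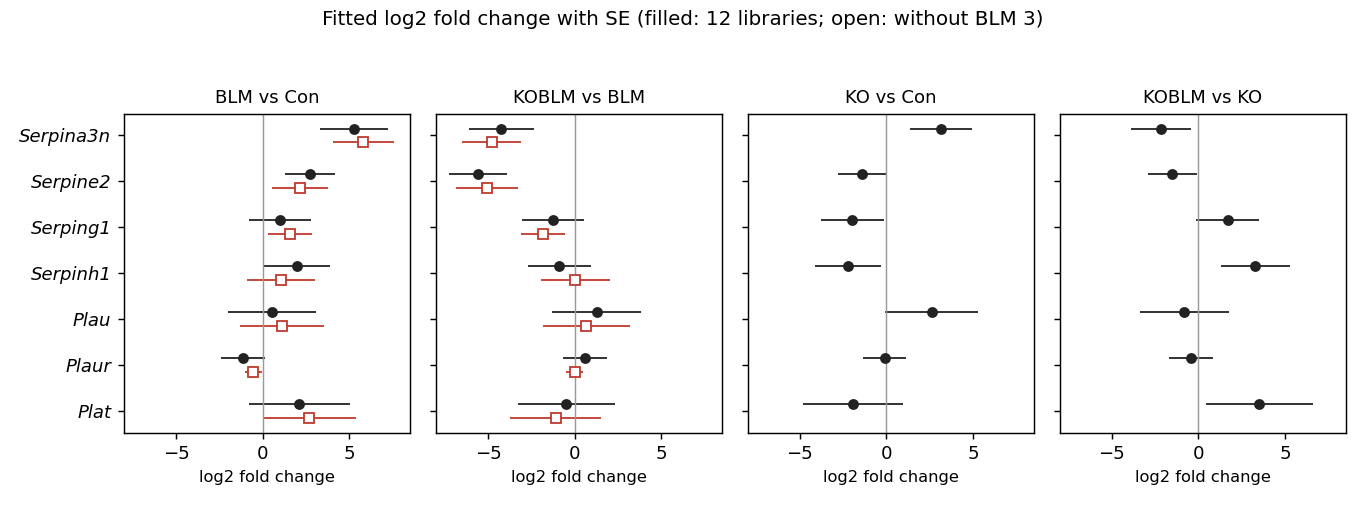
Fitted log2 fold change on the horizontal axis with its SE as the bar for the 7 fitted genes, 1 panel per comparison; filled circles use all 12 libraries and open squares leave out BLM 3. Serpina3n and Serpine2 lie right of 0 in BLM against Con and left of 0 in KOBLM against BLM with and without BLM 3.

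Libraries with fewer genes also held fewer members. BLM 3, KO 3 and KOBLM 2, the 3 libraries with the fewest genes, each had 4 of the 8 members at 0, and the 9 others had 0 to 3. KO 3 lacked Serping1, Serpinf1, Serpinh1 and Plat, and KOBLM 2 lacked Serpine2, Serpinf1, Serpinh1 and Plat. Without these 3 libraries, the log2 fold changes of Serpina3n, Serpine2, Serping1 and Serpinh1 were 5.80, 2.17, 1.57 and 1.05 in BLM against Con. In KOBLM against BLM they were -4.54, -4.46, -1.65 and 0.63. They were 2.74, -2.00, -1.37 and -1.62 in KO against Con, and -1.48, -0.29, 1.29 and 3.30 in KOBLM against KO. In the same order of comparisons, Plau was at 1.12, 1.125, 2.58 and -0.34. Plaur was at -0.55, 0.16, 0.07 and -0.46, and Plat at 2.69, -0.49, -1.33 and 3.52. The part of gene detection in these values was not tested beyond this.

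Several members are also made by fibroblasts, so the markers of that cell type were set beside them. The summed level of 12 fibroblast markers ranged from 1679 to 3253 CPM in the BLM libraries, above all others, which held 481 to 936 (Con), 442 to 1378 (KO) and 1042 to 1478 CPM (KOBLM). All KOBLM sums were thus above all Con sums. For Serpine2 the order was the reverse, with KOBLM (0 to 3.21 CPM) below Con (3.88 to 21.4 CPM). Of 10 fitted fibroblast markers, 4 (Acta2, Col1a2, Col3a1 and Fn1) were higher in BLM than in Con at a fold over 1.5 and an unadjusted p under 0.05 and none was lower. In KOBLM against BLM 1 (Col3a1) was lower and none was higher. At this threshold, 4.27% of all fitted genes were called in BLM against Con and 3.16% in KOBLM against BLM, higher and lower together. Lum and Tcf21, which mark fibroblasts of the lung, had no read in Con, BLM or KO. The ATII list moved the other way in BLM against Con, with 3 of 11 fitted markers lower (Cxcl15, Sftpa1 and Sftpc) and none higher. Its summed level overlapped between these groups, at 756 to 2252 CPM in Con and 459 to 905 in BLM. In KO it was 186 to 829 CPM and in KOBLM 187 to 693. The summed levels of 10 endothelial markers, 693 to 1164 CPM in Con and 100.1 to 535 in KO, did not overlap between these groups, as for Serping1 and Serpinh1. The part of these cells in the levels of the members was not tested.

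**Figure D3:**
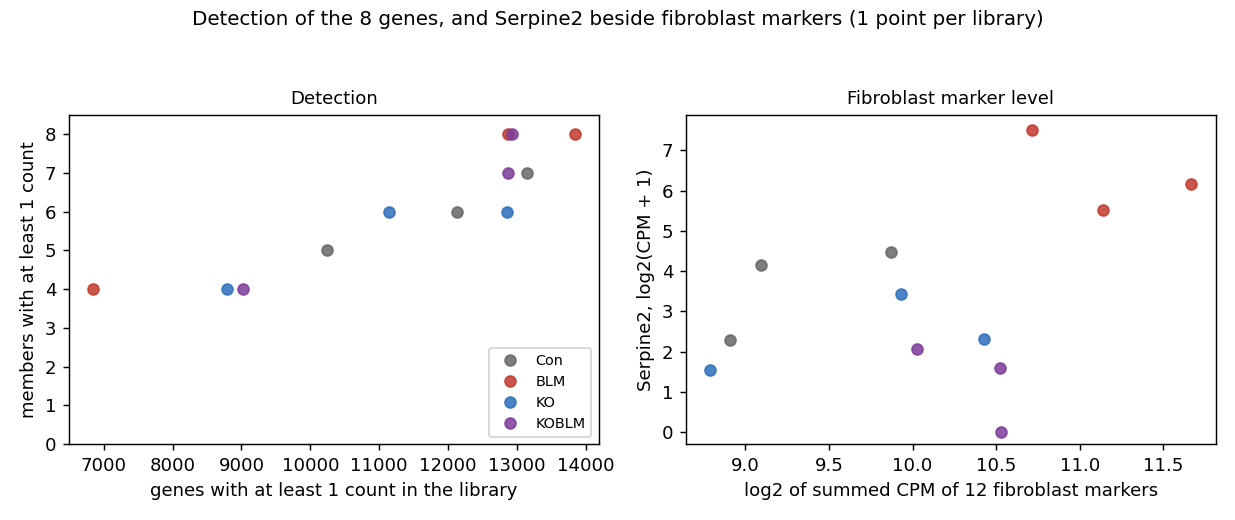
Left, members with at least 1 count against genes with at least 1 count; right, log2(CPM + 1) of Serpine2 against the log2 of the summed CPM of 12 fibroblast markers; each point is 1 library, coloured by group. The 3 libraries with the fewest genes have 4 members each, and the 3 BLM libraries hold both the highest Serpine2 and the highest fibroblast marker sums. The KOBLM libraries lie above all Con libraries in marker sum and below all of them in Serpine2.

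The other genes of the pathway were 58 further serpins, 7 inhibitor genes, 13 genes of plasminogen and its receptors and 27 of coagulation and fibrin, 100 symbols in all after shared ones were counted once. Of these, 76 had a read and 44 were fitted. In BLM against Con, 2 were higher and 3 lower, in KOBLM against BLM 1 was higher and 1 lower, in KO against Con 2 were higher and none lower, and in KOBLM against KO 1 was higher and none lower. In the interaction of bleomycin with genotype 1 was higher and 1 lower. That is 11.4%, 4.55%, 4.55%, 2.27% and 4.55% of those fitted, against 4.27%, 3.16%, 1.44%, 1.69% and 2.82% of all genes. The threshold is a fold over 1.5 at an unadjusted p under 0.05 in edgeR's quasi-likelihood test. With Benjamini-Hochberg adjustment, the main edgeR fit left 0 genes of any kind under 0.05 in each comparison (558, 413, 188, 221 and 368 at the unadjusted threshold), where DESeq2 left 114, 78, 80, 57 and 81. Of the pathway genes, DESeq2 left 2 in BLM against Con and 1 in KO against Con. In BLM against Con other edgeR fits left 12 genes without the filter on low counts, 4 with glmQLFit at legacy = FALSE, and 9 without BLM 3, KO 3 and KOBLM 2.

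Serpinb1a, an inhibitor of neutrophil elastase and cathepsin G, was at 120, 191 and 253 CPM in Con, 15.1, 26.9 and 0 CPM in BLM, 224, 30.5 and 156 CPM in KO, and 95.9, 290 and 31.3 CPM in KOBLM. All BLM libraries were below all libraries of the other groups. Of all fitted genes, 11.8% were lower in BLM than in Con without overlap, and 6.04% higher in KOBLM than in BLM. BLM was 13.4-fold below Con (log2 -3.58, SE 1.41; edgeR adjusted p = 0.995). KOBLM was 9.92-fold above BLM (log2 3.21, SE 1.39; edgeR adjusted p = 1). The first call was lost without BLM 1, when the log2 fold change was -3.60, and the second without BLM 1 (3.22), KOBLM 2 (2.15) or all of BLM 3, KO 3 and KOBLM 2 (1.57). Both were lost in fits of only the groups compared. Without BLM 2 the values were -4.56 and 4.18.

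Pros1, the anticoagulant protein S, was at 275, 235 and 269 CPM in Con and 49.8, 70.0 and 0.448 CPM in BLM. It was 6.47-fold lower in BLM, in 3 of 3 libraries (log2 -2.54, SE 1.15; edgeR adjusted p = 0.995). Anxa2, the annexin that binds plasminogen and Plat at the cell surface, was at 2692, 2238 and 2242 CPM in Con and 1061, 1286 and 163 CPM in BLM. It was 2.86-fold lower in BLM, in 3 of 3 libraries (log2 -1.39, SE 0.64; edgeR adjusted p = 0.995). Both calls were lost without any 1 of the Con libraries or without BLM 1, with log2 fold changes of -2.68 to -2.51 for Pros1 and -1.56 to -1.31 for Anxa2, and in fits of only the groups compared. Without BLM 2 the value of Pros1 was -3.29. Such separation was common, since 11.8% of all fitted genes were lower in BLM than in Con without overlap, beside 13.6% of the pathway genes fitted. The summed level of 16 macrophage markers was also lower in BLM than in Con, as were Serpinb1a, Pros1 and Anxa2. It was 10753 to 23195 CPM in Con and 1027 to 10223 in BLM, which did not overlap, beside 10099 to 39664 in KO and 8155 to 19259 in KOBLM, and no marker of the list was at 0 in any group. Of the 16, 4 were higher and 4 lower in BLM than in Con, and Itgax and Ptprc were higher in KOBLM than in BLM. The part of these cells in the levels of the 3 genes was not tested.

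Serpina3g, Serpina3f and Serpina3m lie beside Serpina3n on chromosome 12, and reads of such near copies can be split between them by the counting, so their values are uncertain. Serpina3g had no read in Con and 29, 46 and 1209 reads in BLM, 0, 73 and 137 in KO and 105, 0 and 65 in KOBLM. BLM was at least 118-fold above Con (edgeR adjusted p = 0.995) and KO at least 22.6-fold above it (edgeR adjusted p = 1). Most reads of BLM were those of BLM 3, without which BLM was at least 15.2-fold above Con and the call was kept. Serpina3f was called higher in KO than in Con, but all of its 650 reads in KO were in KO 3 (edgeR adjusted p = 1), so the comparison has no value without that library, and the call was lost without any 1 of the Con libraries. Serpina3m had 126, 130 and 18 reads in BLM and 0 in each KOBLM library, at least 35.9-fold lower (edgeR adjusted p = 1), and that call was lost without any 1 of 5 libraries, BLM 3 being the exception. Serpina3m was also, like Serpina3n and 5.32% of all fitted genes, above Con in all 3 BLM libraries, with 0, 14 and 0 reads in Con.

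Serpinb8, a furin inhibitor, had 107, 120 and 0 reads in BLM and none in Con (at least 31.0-fold higher; edgeR adjusted p = 0.995). Leaving out any 1 of the Con libraries, BLM 1 or BLM 2 ended that call. Mrc2, which binds collagen and the urokinase receptor complex, had 47, 0 and 18 reads in KOBLM and none in KO (at least 8.34-fold higher; edgeR adjusted p = 1), a call lost without any 1 of the 3 KO libraries, KOBLM 1 or KOBLM 3.

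Among the genes named for their role, Serpinb2 (PAI-2) had no read in any library, and Plg, the plasminogen gene, had 1 read in all.

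**Figure D4:**
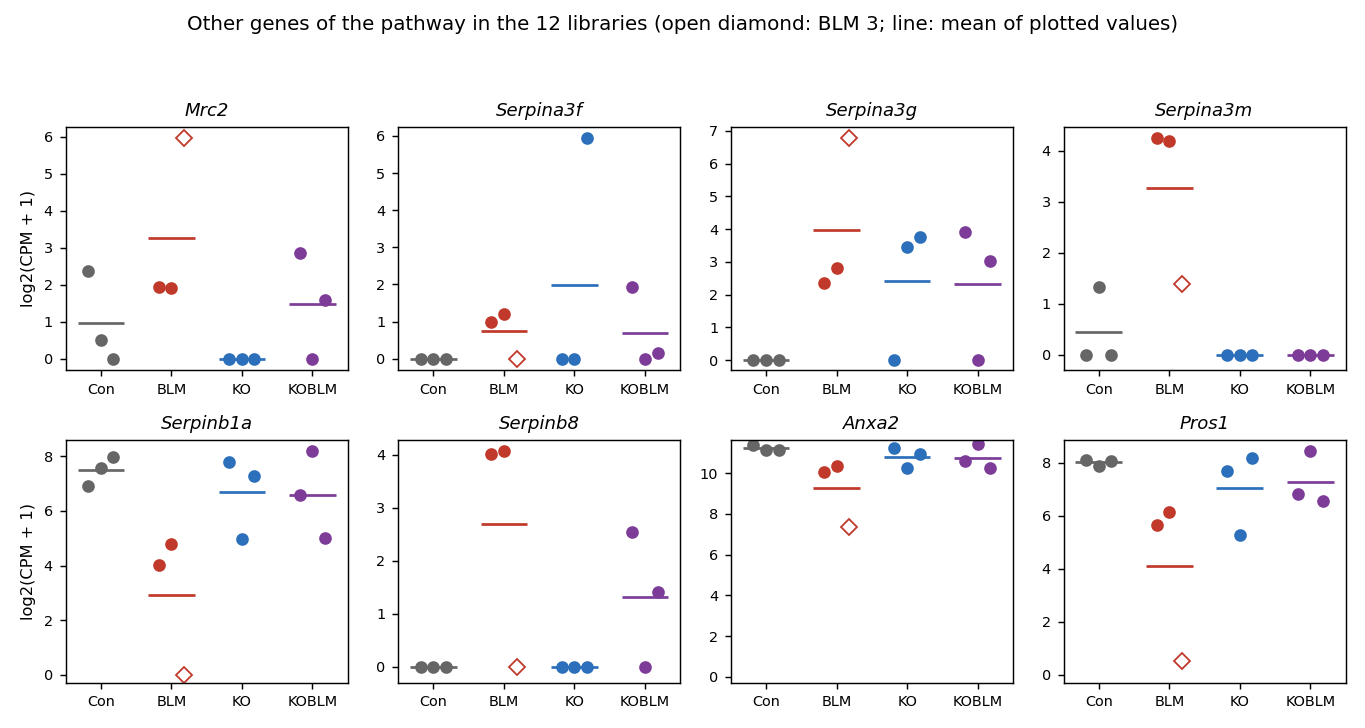
Level of 8 other genes of the pathway in the 12 libraries, as log2(CPM + 1) on the vertical axis, by group; each point is 1 library, the line is the mean of the plotted values and the open diamond is BLM 3. Serpinb1a, Pros1 and Anxa2 are lower in all BLM libraries than in all Con libraries, as were 11.8% of all fitted genes. The only KO library with Serpina3f is KO 3.

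The genes most like each member over the 12 libraries, by Pearson's r of log2 CPM among 8942 or 8943 fitted genes, were Slc20a1 for Serpina3n (r = 0.82, 0.85 without BLM 3), Ice1 for Serpine2 (0.90, 0.86), Trip6 for Serping1 (0.98, 0.97) and Phldb1 for Serpinh1 (0.98, 0.98). For the activation genes they were Zmym6 for Plau (0.89, 0.87), Sav1 for Plaur (0.99, 0.88) and Slc16a1 for Plat (0.96, 0.95). Col1a2, a collagen gene of the fibroblast list, was among the 3 genes most like Serpina3n (0.79, 0.80 without BLM 3). These are descriptions over libraries that share a group structure, depth and detection, and they carry no test.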

How the data were processed

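RNA of sorted ATII cells was sequenced with a 3′ end kit in 12 libraries, 3 a group (Con, BLM, KO, KOBLM), grouped by the sample labels. The authors deposited raw counts of reads per gene symbol, without normalization, on mm10. The submitters' notes name Bowtie2 and edgeR, and the counting program and annotation are not given in the sources used here. Counts of symbols listed more than once (35 symbols) were summed. Each library came from 1 mouse, per the study's methods. Genes were filtered with filterByExpr by group (minimum count 10, total 15), scaled by TMM and fitted with the quasi-likelihood model of edgeR 4.0.16 (R 4.3.3) over the 4 groups, with 8 residual degrees of freedom. Tests were two-sided. A gene was called at a fold over 1.5 and an unadjusted p under 0.05, the threshold of the study. For BLM against Con the study reports many more genes at its threshold than the 558 called here. The reason for this gap was not tested. SE is the log2 fold change over the square root of F. The step was tested on simulated data. DESeq2 1.42.0 and the settings of the closing section were alternatives. The members were part of the fit over all genes, but no p or call of theirs is given, and their SE is a description. The fit takes 1 spread per gene over all 4 groups, so BLM 3 also enters the SE of comparisons without BLM. Named genes of the pathway were those called in a comparison, with Serpinb2, Plg and Serpina3g, and likeness used the 3 genes with the highest Pearson's r and a mean of at least 10 CPM (prior count 2). The members and lists were chosen with earlier results of these data known. Same-numbered libraries of the groups did not deviate together (correlations from -0.117 to 0.096 over 18 pairs). Gene positions are from GENCODE M21 (GRCm38) and promoters from RefSeq (GRCm38.p6), which held 5 of the 8 members. Protein sequences were not used here, and 1 further gene of the named-gene rule is not reported here. The floor of 3 counts covers counting error only.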

Additional observations from a re-analysis of the deposited data

Results flagged for a closer look

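The interaction of treatment and genotype in edgeR called 2 other genes of the pathway at the unadjusted threshold, F2rl2 and Serpina3g. That is 4.55% of the pathway genes fitted, against 2.82% of all genes. F2rl2, a thrombin receptor, had 55, 74 and 0 reads in Con, none in BLM or KO, and 69, 0 and 13 in KOBLM, a log2 difference of 16.61 (edgeR adjusted p = 1). For Serpina3g the difference was -11.28 (edgeR adjusted p = 1), and without BLM 3 it was -8.63 and no longer passed the unadjusted threshold. The call of Serpina3g was also lost without all of BLM 3, KO 3 and KOBLM 2 (-7.57) and with the replicate block (-10.49). The sizes for both genes depend on the prior of the fit, since whole groups had no read. For Serpina3n, every BLM library was above the Con mean and every KOBLM library below the KO mean, and the mean effects in the 2 genotypes were 150.9 CPM apart. For Serpine2, the same pattern came to 88.4 CPM. The BLM mean of Serpine2 was 98.9 CPM with BLM 3 and 57.9 CPM without it. Its knockout libraries overlapped, with KO 1 (1.93 CPM) below KOBLM 1 (3.21 CPM). Without BLM 3, KO 3 and KOBLM 2 its log2 fold change in KOBLM against KO was -0.29. No p is given for these differences of Serpina3n and Serpine2, since the members were chosen from these groups. The differences are a description that was not tested.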

How the results depend on the processing

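The fitted log2 fold changes of the 7 members kept their direction under all alternatives for Serpina3n and Serpine2 in each comparison. Their ranges in BLM against Con were 4.75 to 5.80 and 2.17 to 3.10, and in KOBLM against BLM -5.82 to -3.67 and -6.30 to -4.46. Serpine2 was less stable in KOBLM against KO, at -2.28 to -0.29, and its interaction ranged from -4.95 to -2.45. Other members changed sign in some fits, among them Serping1 in BLM against Con (-0.57 with the replicate block), Serpinh1 in KOBLM against BLM (up to 0.63) and Plau in BLM against Con (-1.40 to 8.05). In this order, BLM against Con, KOBLM against BLM, KO against Con, KOBLM against KO and, last, the interaction of bleomycin with genotype, 558, 413, 188, 221 and 368 genes were called, and 5, 2, 2, 1 and 2 pathway genes. With an adjusted p under 0.05 all these counts were 0. With DESeq2, 947, 755, 374, 460 and 625 genes were called, and 2 and 4 pathway genes in the last 2 comparisons. With glmQLFit at legacy = FALSE, an alternative chosen after seeing the data, it was 1362, 1124, 393, 502 and 753 genes, and 10, 4, 3 and 6 pathway genes in all but KO against Con. Without BLM 3, KO 3 and KOBLM 2, also chosen after seeing the data, it was 1316, 551, 389 and 671 genes in all but KOBLM against BLM, and 9 and 4 pathway genes in the first and the last. Without the filter on low counts, KOBLM against BLM and the interaction gave 645 and 706 genes, and 5 and 6 pathway genes. With only the groups compared, KOBLM against BLM and KOBLM against KO gave 149 and 138 genes, and the 4 comparisons 1, 1, 0 and 0 pathway genes. The replicate numbers do not pair the libraries (0 of 18 same-numbered pairs correlated over 0.1, and 4 of 12 libraries correlated best with their own number). With the replicate block, 262, 100, 100 and 242 genes were called in all but the first comparison, and 1, 0 and 1 pathway genes in the last 3. Leaving out 1 library at a time gave 292 to 767, 236 to 471, 88 to 446, 105 to 402 and 332 to 672 genes, and 1 to 8, 0 to 5, 1 to 3, 0 to 1 and 2 to 6 pathway genes. Scaling by library size alone moved the median log2 fold change of all genes in KO against Con by -0.12, and the members are read relative to that. Of 171 refits of the called pathway genes, 127 kept the call and 44 lost it in the same direction, and Serpina3f gave no value without KO 3. The cause of these differences was not tested. With 3 libraries a group and a biological coefficient of variation of 1.44, and with members at a few reads in several libraries, only large differences could be seen at this depth.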
